A study of Mus musculus with 4 samples.

Results

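The 9 genes described here encode the proteins that hydroxylate, fold and trim procollagen: the prolyl 4-hydroxylase alpha subunits P4ha1, P4ha2 and P4ha3, their shared beta subunit P4hb, the lysyl hydroxylases Plod1, Plod2 and Plod3, the collagen chaperone Serpinh1 and the procollagen C-endopeptidase enhancer Pcolce. They were taken by gene symbol from a deposited expression table of 17691 genes, and 9 of 9 were found. Its 4 libraries, 2 per group, come from the lungs of C57BL/6 mice, wild-type and 6 to 8 weeks old. One group had received bleomycin, a drug that breaks DNA and is used to injure the lung and provoke scarring, through the nose for 10 days, and the other PBS, a salt buffer, by the same route and for the same time. The labels speak of more groups of mice and more replicates than these 4 libraries, and any others were not analysed here. They give no dose and do not say that each library is 1 animal, so p-values measure only the spread between these libraries, which may be technical.

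A collagen chain is made in the endoplasmic reticulum, where it is modified before 3 chains wind into a triple helix. Prolyl 4-hydroxylase, a tetramer of alpha and beta subunits that needs iron, 2-oxoglutarate and vitamin C, converts prolines to 4-hydroxyproline, which keeps the helix stable at body temperature. The beta subunit P4hb is also protein disulphide isomerase, a general folding enzyme. Lysyl hydroxylases make the hydroxylysines to which sugars are attached and through which fibres are later cross-linked. Serpinh1, also called HSP47, binds the finished helix and escorts it out of the reticulum, and Pcolce helps the protease Bmp1 to cut off the C-propeptide outside the cell.

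Values are FPKM, mapped fragments scaled by transcript length and by library size, as the authors deposited them, so levels of different genes can be set side by side within a library. Most low FPKM values lie near whole numbers of fragments, and these steps put the depth at about 17200000 and 17800000 fragments in the bleomycin libraries and about 17000000 and 17100000 in the PBS libraries. The groups also differed in Y-linked genes and in cell markers. Eif2s3y, a Y-linked gene, was listed at 0 in both bleomycin libraries, against 26.4 and 28.9 FPKM in the PBS libraries. All 4 Y-linked genes measured fell, with sums of 0.02 and 0.03 FPKM with bleomycin, against 52.0 and 51.6 FPKM with PBS. The groups thus appear to differ in sex. All 9 genes described here are autosomal, and whether they differ by sex was not tested. The summed level of 6 hepatocyte markers was 6.36 and 5.78 FPKM with bleomycin, against 75.9 and 72.6 FPKM with PBS. The club cell gene Scgb1a1 took 3.98% and 4.28% of summed FPKM with bleomycin, against 11.2% and 8.35% with PBS. With each library scaled without Scgb1a1, an alternative chosen after seeing the data, the log2 fold change of P4ha3 was 2.92 and 4 of the 5 calls described below held, P4hb losing its own (limma adjusted p = 0.0522). All 3 red cell markers fell, with sums of 1671 and 1178 FPKM with bleomycin, against 3780 and 4979 FPKM with PBS. Of 2 platelet markers 1 fell, with sums of 34.9 and 26.5 FPKM with bleomycin, against 70.4 and 136 FPKM with PBS. Of 5 endothelial markers 2 fell and 4 were lower without overlap, with sums of 787 and 725 FPKM with bleomycin, against 1021 and 1050 FPKM with PBS. Over all tested genes 7.69% fell and 35.0% were lower without overlap. The Y-linked genes, the Scgb1a1 share and the marker sums above did not overlap between the groups. These differences and the treatment thus cannot be told apart, and the part of the cell markers in the results was not tested. The tissue label was met: 8 of 8 lung epithelium markers were measured above the filter. They summed to 33832 and 32633 FPKM with bleomycin, against 69018 and 58641 FPKM with PBS. Scgb1a1 alone gave 18857 and 19751 FPKM of the bleomycin sums, and 54415 and 41165 FPKM of the PBS sums. Of the 8 markers 1 rose (Epcam), 0 fell and 7 did not pass by limma, with 1 lower at an unadjusted p under 0.05 (Scgb1a1). In whole tissue, fewer cells of a type and less RNA per cell cannot be told apart.

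After bleomycin 5 of the 9 genes rose, P4ha3 by far the most, and P4hb, Serpinh1, Plod3 and Plod1 by 1.34 to 1.58 times. P4ha1, P4ha2, Plod2 and Pcolce did not pass the test. All 9 exceeded the filter of a mean of 1 FPKM, P4ha3 only through its bleomycin values. The test was limma on log2(FPKM + 1) over 12986 genes, called at an adjusted p under 0.05, by which 8.59% of all tested genes rose and 7.69% fell, 16.3% in all. None of the 9 fell by limma, nor was any lower at an unadjusted p under 0.05 (0 genes). The median log2 fold change of the 9 was 0.41, beside -0.02 over all tested genes. In 6 of the 9 both bleomycin libraries lay above both PBS libraries, as did 31.5% of tested genes, in 2 they lay below, as did 35.0%, and in 1 the groups overlapped. Over all tested genes the groups did not overlap in 66.5%. These calls need both PBS libraries: with PBS replicate 1 left out limma called 0 genes in the table (1137 higher and 993 lower before adjustment, at p under 0.05), and with PBS replicate 2 left out also 0 (1160 higher and 1048 lower before adjustment). Of the 9 genes 4 were higher before adjustment in each case.

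**Figure D1:**
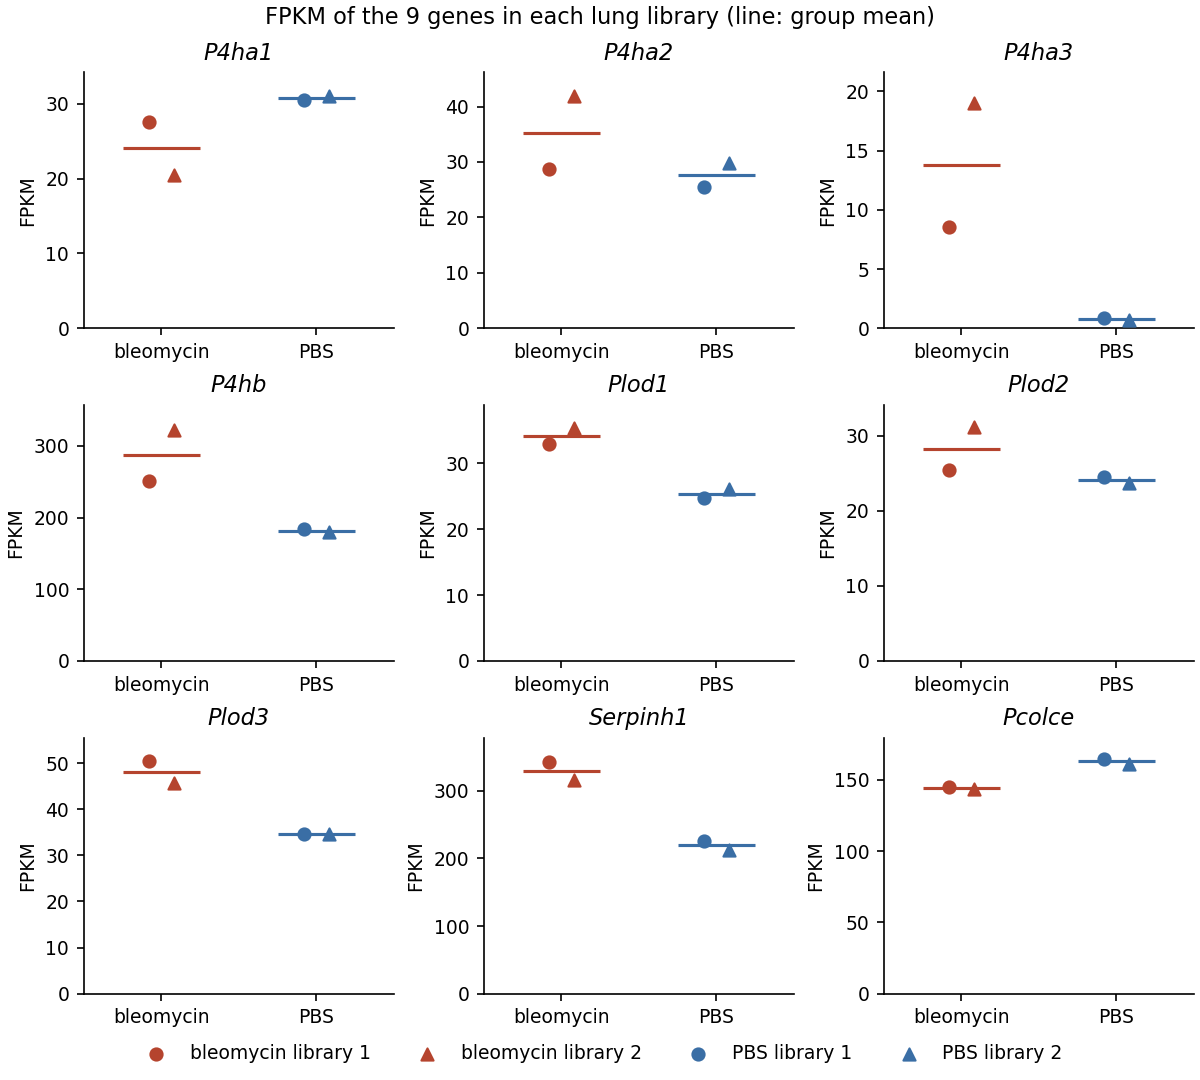
FPKM (vertical axis, from 0) of each of the 9 genes in the bleomycin and PBS lung libraries; points are single libraries, with circles for library 1 and triangles for library 2, and lines are group means of 2. P4ha3 stands at 8.57 and 19.0 FPKM with bleomycin against 0.89 and 0.73 with PBS, and P4ha1 and Pcolce are the only panels with both bleomycin points below both PBS points.

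**Figure D2:**
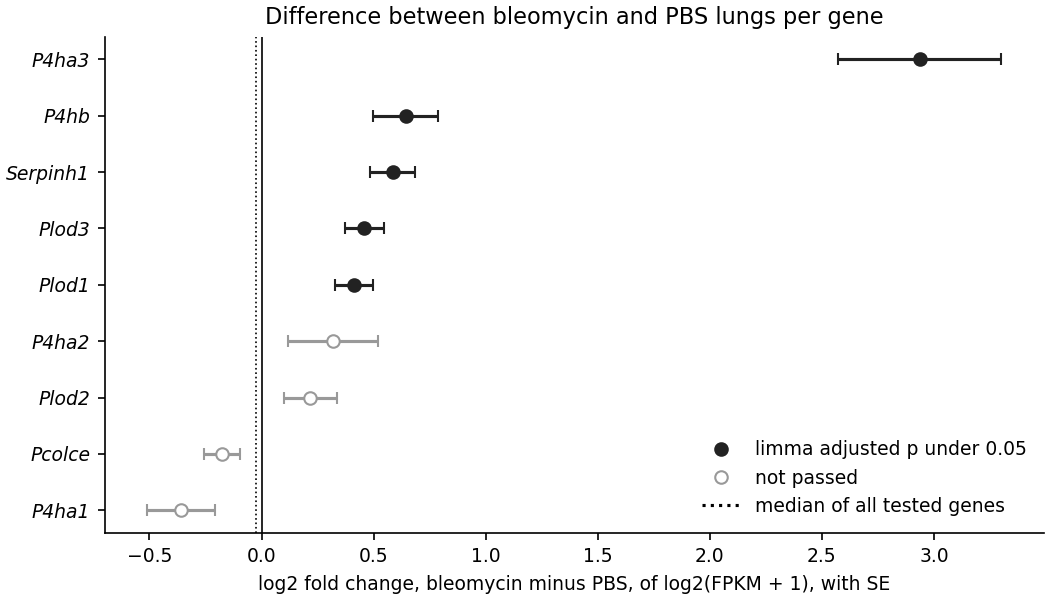
Log2 fold change of each gene (bleomycin minus PBS, on log2(FPKM + 1)) with its SE from limma, filled where the adjusted p is under 0.05. P4ha3 stands at 2.94, the other 4 filled points between 0.41 and 0.64, and P4ha1 and Pcolce below 0.

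The alpha subunits carry the catalytic site of prolyl 4-hydroxylase, and each forms its own tetramer with P4hb. P4ha1 (gene 18451, GRCm38.p6 chromosome 10, 59323197 to 59373304, plus strand) is the widely expressed form, P4ha2 (gene 18452, chromosome 11, 54100924 to 54131668, plus strand) is prominent in cartilage and bone, and P4ha3 (gene 320452, chromosome 7, 100285489 to 100319701, plus strand) is usually the scarcest. The promoters of the 3 subunits are shown because the genes behaved differently, and that of Serpinh1, described further on, for comparison. Each runs from 250 bases before to 50 bases after a transcript start (RefSeq, GRCm38.p6), which need not be the outermost start of the gene, and is written 5′ to 3′ on the gene's strand. Capitals mark 4 motifs on either strand: the TATA box, searched as TATAAA, the CCAAT box, the GC box, searched as GGGCGG, and the core of the hypoxia response element, searched as ACGTG.
P4ha1, chr10:59323046-59323345, plus strand: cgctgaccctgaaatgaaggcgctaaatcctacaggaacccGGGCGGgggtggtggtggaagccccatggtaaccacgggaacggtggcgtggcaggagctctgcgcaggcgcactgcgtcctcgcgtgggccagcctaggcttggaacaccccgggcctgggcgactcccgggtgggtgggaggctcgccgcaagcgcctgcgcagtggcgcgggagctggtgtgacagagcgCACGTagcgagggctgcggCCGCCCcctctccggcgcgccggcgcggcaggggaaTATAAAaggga
P4ha2, chr11:54100674-54100973, plus strand: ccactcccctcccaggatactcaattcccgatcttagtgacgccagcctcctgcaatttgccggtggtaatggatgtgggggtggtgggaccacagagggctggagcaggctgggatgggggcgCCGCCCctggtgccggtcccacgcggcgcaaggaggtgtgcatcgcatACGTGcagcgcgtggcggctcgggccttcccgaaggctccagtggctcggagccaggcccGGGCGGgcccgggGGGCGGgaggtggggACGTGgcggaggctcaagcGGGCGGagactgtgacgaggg
P4ha3, chr7:100285270-100285569, plus strand: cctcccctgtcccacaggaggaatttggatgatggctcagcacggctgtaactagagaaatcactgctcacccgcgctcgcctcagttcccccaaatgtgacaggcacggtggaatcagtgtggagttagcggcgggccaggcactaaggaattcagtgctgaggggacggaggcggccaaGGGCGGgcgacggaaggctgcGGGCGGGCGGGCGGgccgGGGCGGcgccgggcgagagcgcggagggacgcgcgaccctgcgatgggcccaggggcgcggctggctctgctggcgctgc
Serpinh1, chr7:99353190-99353489, minus strand: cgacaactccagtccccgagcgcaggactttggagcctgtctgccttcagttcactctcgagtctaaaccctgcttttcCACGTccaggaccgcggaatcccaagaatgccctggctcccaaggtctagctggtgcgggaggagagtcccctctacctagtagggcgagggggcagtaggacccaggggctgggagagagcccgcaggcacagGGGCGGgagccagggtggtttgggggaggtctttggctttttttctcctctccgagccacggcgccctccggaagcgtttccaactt

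In these windows P4ha3 held 5 GC boxes, starting 69, 48, 44, 40 and 30 bases before the start, some of which share letters, and 0 matches to ACGTG. P4ha1 held 2 GC boxes and 1 ACGTG, P4ha2 held 4 and 2, and Serpinh1 held 1 and 1. A promoter was found for 8 of the 9 genes, and 7 of these 8 held at least 1 GC box, against 35.7% of 32851 promoters of the same length. ACGTG occurred in 5 of the 8, against 19.6% of promoters, the CCAAT box in 2 of the 8, against 37.4%, and TATAAA in 2 of the 8, against 13.6%. The TATAAA of P4ha1 began 39 bases after the start, and that of Plod1 lay 232 bases before it on the opposite strand. The Smad box GTCTAGAC occurred in 0 of the 8, against 0.213%. The windows are rich in G and C, at 70.3% for P4ha1, 70.3% for P4ha2, 69.3% for P4ha3 and 62.3% for Serpinh1, beside a median of 52.7% over the promoters. A match of letters does not show that a factor binds there.

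P4ha3 was at 8.57 and 19.0 FPKM in bleomycin lungs, against 0.89 and 0.73 FPKM in PBS lungs. The groups were far apart, although the bleomycin libraries themselves differed 2.22-fold. The means were 13.8 ± 7.4 and 0.81 ± 0.113 FPKM (SD, n = 2 each), a 17.0-fold difference. The log2 fold change was 2.94 ± 0.36 (SE, limma adjusted p = 0.0139), and 99.9% of tested genes had a smaller one. P4ha3 entered the tested genes only through its bleomycin values, so neither this p-value nor this rank is independent of its rise. With no filter on low values the limma adjusted p was 0.0374. The log2 fold change was 3.47 without bleomycin replicate 1 and 2.40 without bleomycin replicate 2. On its single transcript of 2361 bases these values correspond to about 348 and 800 fragments with bleomycin and about 36 and 29 with PBS. P4ha3 was the scarcest of the 9 genes in both groups.

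P4ha1 was at 27.6 and 20.5 FPKM in bleomycin lungs, against 30.5 and 31.0 FPKM in PBS lungs. Both bleomycin values lay below the PBS values, the second by more than the first. The log2 fold change of -0.36 ± 0.15 did not pass (limma adjusted p = 0.171). Without bleomycin replicate 1 it was -0.56, and without bleomycin replicate 2 it was -0.15.

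P4ha2 was at 28.7 and 41.8 FPKM in bleomycin lungs, against 25.5 and 29.9 FPKM in PBS lungs. It is the 1 gene of the 9 whose groups overlapped. Its log2 fold change of 0.32 ± 0.20 did not pass (limma adjusted p = 0.316). Without bleomycin replicate 1 it was 0.58, and without bleomycin replicate 2 it was 0.05.

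P4ha3 made up a larger share of the alpha subunits in both bleomycin libraries than in either PBS library. It gave 13.2% and 23.4% of summed alpha subunit FPKM with bleomycin, against 1.56% and 1.18% with PBS. P4ha1 gave 42.5% and 25.2% with bleomycin, against 53.6% and 50.3% with PBS, and P4ha2 44.3% and 51.4% with bleomycin, against 44.8% and 48.5% with PBS. The P4ha3 share thus averaged 18.3% ± 7.18 and 1.37% ± 0.269 (SD, n = 2 each), with an exact permutation p of 0.333, two-sided, which is the smallest that 2 libraries against 2 allow. The sum of P4ha1 and P4ha2 was 56.2 and 62.4 FPKM with bleomycin, against 56.0 and 60.9 FPKM with PBS, so these ranges overlapped. With P4ha3 added it was 64.8 and 81.4 FPKM with bleomycin, against 56.9 and 61.7 FPKM with PBS.

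**Figure D3:**
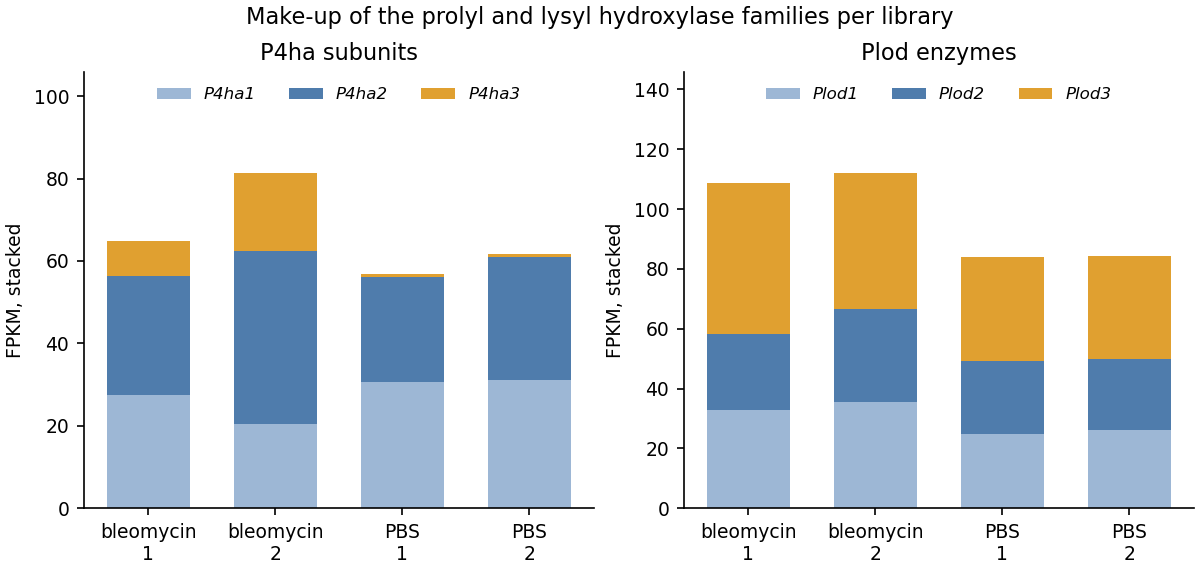
Stacked FPKM of the 3 prolyl 4-hydroxylase alpha subunits (left) and the 3 lysyl hydroxylases (right) in each library, bleomycin 1 and 2, then PBS 1 and 2. The P4ha3 segment is 8.57 and 19.0 FPKM with bleomycin and barely visible with PBS, while Plod2 takes 23.4% to 29.2% of its bar in all 4 libraries.

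P4hb (gene 18453, chromosome 11, 120560298 to 120573253, minus strand) was at 251 and 322 FPKM in bleomycin lungs, against 184 and 179.85 FPKM in PBS lungs. Both bleomycin values stood clear of the PBS pair, which agreed closely. The rise was 1.58-fold, with a log2 fold change of 0.64 ± 0.15 (limma adjusted p = 0.0483), just inside the threshold. Of 12 other settings that keep all libraries, it passed in 5, with adjusted p-values of 0.0277 to 0.0825. At the RNA level P4hb stood above the summed alpha subunits in every library, which does not give the amounts of protein. P4hb was at 3.87 and 3.96 FPKM per FPKM of alpha subunit with bleomycin, against 3.23 and 2.92 with PBS. The exact permutation p was 0.333, two-sided, the smallest that 2 libraries against 2 allow. Part of P4hb serves proteins other than collagen, and Mttp, which pairs with it in the microsomal triglyceride transfer protein, was at 0.95 and 0.89 FPKM with bleomycin, against 1.22 and 0.63 FPKM with PBS.

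The 3 lysyl hydroxylases differ in the lysines they serve. Plod1 acts on lysines in the helix, Plod2 on those in the telopeptides, where hydroxylation steers cross-links towards the hard-to-digest pyridinoline kind, and Plod3 also carries sugar-transferring activity and is needed for basement membrane collagen. Plod3 (gene 26433, chromosome 5, 136987019 to 136996646, plus strand) was at 50.5 and 45.6 FPKM in bleomycin lungs, against 34.7 and 34.6 FPKM in PBS lungs. It was the most abundant of the 3 in all 4 libraries and rose by 0.46 ± 0.09 on the log2 scale (limma adjusted p = 0.0326). Its exons share 11.7% of their bases with Znhit1 on the opposite strand, at 71.1 and 58.5 FPKM with bleomycin and 58.8 and 52.0 FPKM with PBS, and since the labels do not state a stranded count the value of Plod3 may hold some Znhit1 fragments.

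Plod1 (gene 18822, chromosome 4, 147909753 to 147936776, minus strand) was at 32.9 and 35.4 FPKM in bleomycin lungs, against 24.7 and 26.1 FPKM in PBS lungs. The groups did not overlap, and each pair was close. The log2 fold change was 0.41 ± 0.09 (limma adjusted p = 0.0393). Plod1 passed in 9 of the 12 other settings that keep all libraries, with adjusted p-values of 0.0288 to 0.0652, and Plod3 in 11 of the 12.

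Plod2 (gene 26432, chromosome 9, 92539636 to 92608428, plus strand) was at 25.5 and 31.1 FPKM in bleomycin lungs, against 24.5 and 23.7 FPKM in PBS lungs. The first bleomycin library lay barely above the PBS pair and the second further off. The log2 fold change of 0.22 ± 0.12 did not pass (limma adjusted p = 0.258). It was 0.36 without bleomycin replicate 1 and 0.08 without bleomycin replicate 2. The table sums the 2 transcripts of Plod2, so the splice forms with and without the exon tied to telopeptide activity were not separated. Plod2 made up 23.4% and 27.8% of summed Plod FPKM with bleomycin, against 29.2% and 28.1% with PBS. The difference was -3.06 percentage points (exact permutation p = 0.333, two-sided, the smallest possible). Summed Plod was 109 and 112 FPKM with bleomycin, against 83.9 and 84.4 FPKM with PBS.

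Serpinh1 (gene 12406, chromosome 7, 99345375 to 99353239, minus strand), the collagen chaperone, had the highest mean of the 9 genes in both groups, although P4hb was above it in the second bleomycin library, and 98.3% of tested genes had a lower mean level. It was at 343 and 316 FPKM in bleomycin lungs, against 226 and 212 FPKM in PBS lungs. The groups were well apart, with means of 329 ± 19.5 and 219 ± 10.1 FPKM (SD, n = 2 each). The rise was 1.5-fold, with a log2 fold change of 0.58 ± 0.10 (limma adjusted p = 0.0269). P4ha3 and Serpinh1 passed in all 12 other settings that keep all libraries.

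Pcolce (gene 18542, chromosome 5, 137605105 to 137611522, minus strand) was at 145 and 143 FPKM in bleomycin lungs, against 165 and 161 FPKM in PBS lungs. Both bleomycin values lay below both PBS values, by little, with a log2 fold change of -0.18 ± 0.08 that did not pass (limma adjusted p = 0.199). Pcolce2, the other C-proteinase enhancer, fell. It was at 50.9 and 28.4 FPKM with bleomycin, against 193 and 218 FPKM with PBS, a log2 fold change of -2.40 ± 0.28 (limma adjusted p = 0.013). Pcolce thus stood at 2.85 and 5.04 times the FPKM of Pcolce2 with bleomycin, against 0.852 and 0.738 times with PBS, and the sum of both enhancers was 196 and 172 FPKM with bleomycin, against 358 and 379 FPKM with PBS.

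Among the proteases that trim procollagen, Bmp1 and Adamts2 rose. Bmp1, the C-proteinase, was at 40.4 and 49.9 FPKM with bleomycin, against 21.3 and 21.8 FPKM with PBS, with a log2 fold change of 1.03 ± 0.12 (limma adjusted p = 0.0132). Adamts2, the main procollagen N-proteinase, was at 30.8 and 35.1 FPKM with bleomycin, against 14.9 and 13.6 FPKM with PBS, with a log2 fold change of 1.15 ± 0.10 (limma adjusted p = 0.00849). Of 9 genes listed for propeptide removal 7 were in the table and 5 were tested. Of these 2 rose, 1 fell and 2 did not pass, with a median log2 fold change of 0.08.

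The chains these proteins act on differed between the groups by more than 8 of the 9 genes did, P4ha3 being the exception. The fibrillar procollagen genes Col1a1, Col1a2, Col3a1, Col5a1 and Col5a2 summed to 1201 and 1421 FPKM with bleomycin, against 460.2 and 392 FPKM with PBS. All 5 rose, with a median log2 fold change of 1.67, beside 0.41 for the 9 genes described here. Summed FPKM of the 9 genes was 913 and 975 with bleomycin, against 716 and 699 with PBS, 1.33 times as much, while that of the procollagens was 3.08 times as much. Per FPKM of procollagen, the alpha subunits stood at 0.054 and 0.0573 with bleomycin, against 0.124 and 0.157 with PBS. The lysyl hydroxylases stood at 0.0906 and 0.0789 with bleomycin, against 0.182 and 0.215 with PBS. Serpinh1 stood at 0.286 and 0.222 with bleomycin, against 0.492 and 0.541 with PBS, and Pcolce at 0.121 and 0.101 with bleomycin, against 0.358 and 0.411 with PBS. Each of the 4 ratios was lower in both bleomycin libraries than in both PBS libraries, by 2.03 to 3.47 times in the means (exact permutation p = 0.333 each, two-sided, the smallest possible). A single scaling factor per library cancels in such ratios, but they compare RNA levels and say nothing of enzyme activity.

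**Figure D4:**
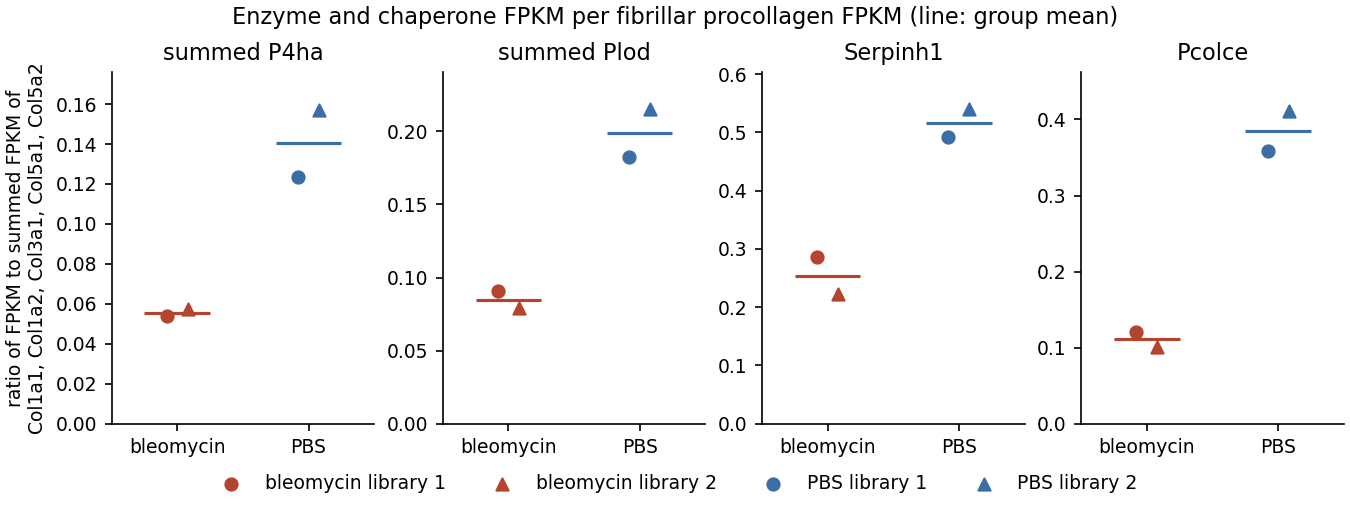
Ratio of summed P4ha, summed Plod, Serpinh1 and Pcolce FPKM to the summed FPKM of Col1a1, Col1a2, Col3a1, Col5a1 and Col5a2 (vertical axes, from 0) in the bleomycin and PBS libraries; points are libraries and lines group means. All bleomycin points lie below all PBS points, for Serpinh1 at 0.286 and 0.222 against 0.492 and 0.541.

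Other genes of procollagen modification and folding changed in part. Fkbp10, a prolyl isomerase that works with Serpinh1 and Plod2, was at 32.8 and 51.5 FPKM with bleomycin, against 19.7 and 17.5 FPKM with PBS, and rose by 1.10 ± 0.23 on the log2 scale (limma adjusted p = 0.038). P3h1, the prolyl 3-hydroxylase that forms a complex with Crtap and Ppib, rose by 0.87 ± 0.15 (limma adjusted p = 0.0272), and Crtap itself by 0.53. Colgalt1, which adds galactose to hydroxylysine, rose by 0.70 ± 0.08 (limma adjusted p = 0.0132), to 66.8 and 72.6 FPKM with bleomycin, against 42.7 and 42.5 FPKM with PBS. Its relative Colgalt2 fell, to 2.49 and 1.56 FPKM with bleomycin, against 7.26 and 5.50 FPKM with PBS. Of 14 such genes 4 rose, 1 fell and 9 did not pass, with a median log2 fold change of 0.32. Sparc, a secreted collagen-binding protein and the most abundant of the list, was at 2189 and 3156 FPKM with bleomycin, against 1455 and 1411 FPKM with PBS, and did not pass (limma adjusted p = 0.0668).

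Creb3l1 and Sec24d rose among the collagen export genes, and calreticulin and BiP among the general folding genes. Of 15 export genes 2 rose, 0 fell and 13 did not pass by limma, with 0 genes lower at an unadjusted p under 0.05 and a median log2 fold change of 0.22. The risen ones were Sec24d, a coat subunit of the vesicles that carry procollagen out of the reticulum, at 22.2 and 23.1 FPKM with bleomycin against 16.2 and 14.9 FPKM with PBS, and Creb3l1, which is no coat protein but a transcription factor held in the reticulum membrane. Creb3l1 was at 18.5 and 19.9 FPKM with bleomycin, against 7.81 and 7.33 FPKM with PBS, a log2 fold change of 1.24 ± 0.09 (limma adjusted p = 0.00621). Of 20 protein disulphide isomerase relatives and reticulum chaperones 7 rose, 0 fell and 13 did not pass, with a median of 0.28 and 0 lower at an unadjusted p under 0.05. Sdf2l1, a partner of reticulum chaperones, was at 31.3 and 31.7 FPKM with bleomycin, against 13.9 and 14.8 FPKM with PBS, and rose. On the log2 scale Calr (calreticulin) rose by 0.57, Hspa5 (BiP, the main reticulum chaperone) by 0.53, and Hyou1 by 0.44. The median of all tested genes was -0.02.

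**Figure D5:**
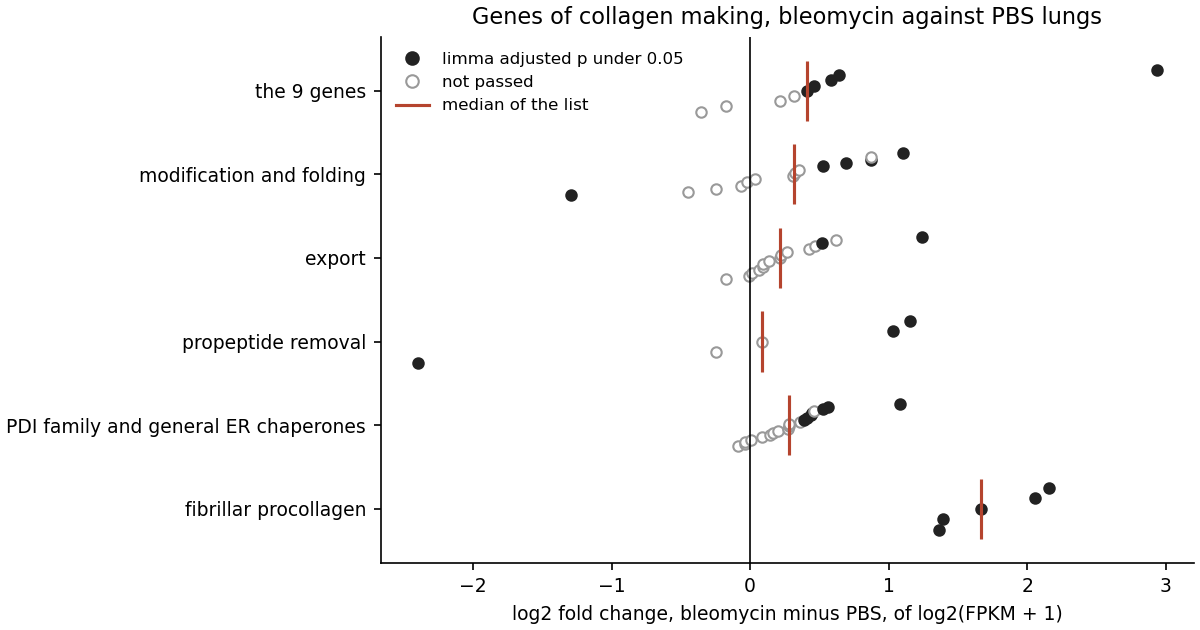
Log2 fold change (bleomycin minus PBS) of each tested gene in the 9 genes and in 5 lists of related genes, filled where the limma adjusted p is under 0.05, with a red line at the median of each list. Medians run from 0.08 for propeptide removal to 1.67 for fibrillar procollagen, with 0.41 for the 9 genes, and P4ha3 at 2.94 lies above every other point.

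P4ha1, P4ha2 and Plod2 are known to be induced by hypoxia through Hif1a, and these 3 did not pass. Of 15 tested genes on the hypoxia list, which holds Hif1a itself, 6 rose, 1 fell and 8 did not pass. Their median log2 fold change was 0.46. In 8 of them both bleomycin libraries lay above both PBS libraries, as did 31.5% of all tested genes. In 4 they lay below (Bnip3, Egln1, Vegfa and Pfkfb3), as did 35.0%. Ankrd37 was at 12.4 and 28.3 FPKM with bleomycin, against 4.52 and 4.52 FPKM with PBS, and Hif1a at 30.2 and 24.4 FPKM with bleomycin, against 15.5 and 15.2 FPKM with PBS, and both rose. Ndrg1 rose by 0.70 and Bnip3 fell, with a log2 fold change of -0.70. Egln1, the prolyl hydroxylase that marks Hif1a for breakdown, was at 21.6 and 19.9 FPKM with bleomycin, against 26.6 and 27.1 FPKM with PBS, and did not pass (limma adjusted p = 0.0528).

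The bleomycin libraries did not share 1 profile of these genes. P4ha2, P4ha3, P4hb, Plod1 and Plod2 were higher in the second than in the first, 2.22-fold for P4ha3, 1.46-fold for P4ha2 and 1.28-fold for P4hb. P4ha1, Plod3, Serpinh1 and Pcolce were lower, with P4ha1 at 0.746 of its level in the first. The procollagens Col1a1 and Col5a2 were likewise higher in the second, at 327 and 435 FPKM and at 69.4 and 123.9 FPKM in the first and second library, while Col3a1 was lower there, at 440.5 and 403 FPKM. The summed level of 6 macrophage and leukocyte markers was 5247 and 1779 FPKM with bleomycin, against 2426 and 3016 FPKM with PBS. Lyz2 alone gave 4992 and 1608 FPKM of the bleomycin sums and did not pass. Of the 6, 3 rose, 0 fell and 3 did not pass by limma, with 0 genes lower at an unadjusted p under 0.05. Cd68 was at 135 and 85.4 FPKM with bleomycin, against 37.7 and 37.0 FPKM with PBS. Adgre1 was at 22.7 and 14.9 FPKM with bleomycin, against 8.24 and 8.5 FPKM with PBS, and Mrc1 at 25.0 and 26.4 FPKM with bleomycin, against 14.6 and 14.1 FPKM with PBS. These 3 macrophage genes rose, while Csf1r and Ptprc did not pass, with log2 fold changes of -0.17 and -0.08 and overlapping groups. Cd68 and Adgre1 were higher in the first bleomycin library than in the second. The part of this in the gene values was not tested.

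Markers of the cells that make most collagen moved in both directions on the general list and, where called, upwards on the activated fibroblast list. Of 8 general mesenchymal markers 2 rose, 2 fell and 4 did not pass, and their summed level was 538 and 496 FPKM with bleomycin, against 578 and 587 FPKM with PBS. Lum and Pdgfrb rose, by 0.70 and 0.48 on the log2 scale, and Tcf21 and Dcn fell, at -1.12 and -0.64. Pdgfra was at 50.9 and 46.3 FPKM with bleomycin, against 48.6 and 50.2 FPKM with PBS. Of 6 activated fibroblast markers 4 rose, 0 fell and 2 did not pass by limma, and their sum was 1202 and 868 FPKM with bleomycin, against 303 and 324 FPKM with PBS, with none lower at an unadjusted p under 0.05 (0 genes). The risen ones were Tnc, Spp1, Acta2 and Cthrc1, with log2 fold changes of 3.74, 3.50, 1.52 and 1.10. Postn and Runx1 did not pass, with log2 fold changes of -0.09 and 0.51 (limma adjusted p = 0.582 and 0.0516). The groups overlapped for Postn, while both bleomycin values of Runx1 lay above both PBS values. The median of the activated fibroblast list was 1.31. Spp1, which macrophages also make, gave 856 and 443 FPKM of the bleomycin sums. Of 4 plasma cell markers, cells rich in reticulum chaperones, 1 rose (Sdc1), and their sum was 301 and 242 FPKM with bleomycin, against 180.4 and 172 FPKM with PBS. Sdc1 and Xbp1, which other cells also make, carried most of that sum. Mzb1, a more specific marker, was at 5.25 and 1.57 FPKM with bleomycin, against 4.3 and 4.79 FPKM with PBS, and Jchain at 49.3 and 7.82 FPKM with bleomycin, against 6.33 and 6.01 FPKM with PBS, and neither passed. Of the markers of airway cartilage, where P4ha2 is high, 0 of 5 reached the filter, with a summed level of 0.6 and 0.14 FPKM with bleomycin, against 0.11 and 0.1 FPKM with PBS. No marker of these lists was at 0 in all 4 libraries. The part of cell make-up in the changes of the 9 genes was not tested.

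By the distance between log2 profiles over the 4 libraries, each centred on its PBS mean, the genes most like P4ha3 among 12985 were S100a14, Fxyd4 and Rgs16, at distances of 0.28, 0.36 and 0.47 on the log2 scale. S100a14 was at 48.0 and 91.7 FPKM with bleomycin, against 9.47 and 6.45 FPKM with PBS, Fxyd4 at 6.95 and 13.3 FPKM with bleomycin, against 0.22 and 0.53 FPKM with PBS, and Rgs16 at 6.60 and 11.4 FPKM with bleomycin, against 0.43 and 0.57 FPKM with PBS. The genes were chosen for this likeness, which rests on 4 libraries. Fxyd4 and Rgs16, like P4ha3, exceeded the filter of a mean of 1 FPKM only through their bleomycin values.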

How the data were processed

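Lung RNA from mice given bleomycin or PBS was sequenced in 4 libraries, grouped by their labels (n = 2 each). The authors deposited 1 table of FPKM per gene, per the file headers. The submitters' processing notes name Bowtie2 and HISAT and, as genome builds, GRCm38 and mm10. Their versions, and how FPKM was computed, are not stated in the labels or headers. A row without a name was left out, and 27 symbols that had become dates were restored through RefSeq accessions, leaving 17691 genes. Of these, 12986 with a mean of at least 1 FPKM were tested on log2(FPKM + 1) values. The test was that of limma 3.58.1, run in R 4.3.3 (eBayes with a trend, two-sided, Benjamini-Hochberg over all tested genes, threshold 0.05). A fold change on this scale understates that of low genes. Because the unit is FPKM, no count model was run. Depth was taken from genes with 1 transcript of 300 to 1000 bases and values of 0.03 to 0.3 FPKM, of which 75% to 78.1% lay within 0.15 of a whole fragment at the depth that suits them best, against 30% by chance at a fixed depth. It uses annotated lengths, so fragment numbers are approximate. Ratios within a library were compared with exact permutation tests. Positions and promoters come from RefSeq GRCm38.p6, the build named in the notes, and overlaps from GENCODE M21. The members and lists were chosen with earlier results of these data known. Besides the 9 genes, the text names up to 4 called genes with the largest change per list, or up to 2 by level where fewer than 2 passed, and some further genes chosen after their values were seen. The functions were tested on simulated data. Alternatives tried were a pseudocount of 0.1 or 0.5, dropping the filter or raising it to 5 FPKM, TPM, upper quartile and quantile scaling, eBayes in its robust form or without trend, the replicate number as a block, omission of each library in turn, and, added after seeing the data, scaling without Scgb1a1 and array weights by group. Tables were prepared in Python 3.11.15 (pandas 2.3.3, numpy 2.4.6, scipy 1.17.1).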

Additional observations from a re-analysis of the deposited data

How the results depend on the processing

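Of 144 values of the 9 log2 fold changes under 16 alternatives, 0 reversed, 120 kept their side of the threshold, 21 lost and 3 gained the call. The risen genes among the 9, 5 in the main result, numbered 3 without the filter on low values (P4ha3, Serpinh1 and Plod3), 3 with eBayes without trend (the same 3) and 2 with the replicate block (P4ha3 and Serpinh1). Leaving out 1 library gave 0 to 7 risen and 0 to 1 fallen (P4ha1, without bleomycin replicate 1). Calls over all genes ranged from 0 to 2393 higher and 0 to 3180 lower when 1 library was left out, with 0 and 0 without either PBS library. For the partner genes of modification, export and propeptide removal (8 higher and 2 lower), no filter gave 5 higher and 1 lower, a mean of at least 5 FPKM gave 1 lower, and leaving out 1 library gave 0 to 17 higher and 0 to 4 lower. A group left with 1 library is assumed to vary like the other, so calls made then measure no spread within that group. Where the groups of a gene did not overlap, leaving out 1 library could not reverse its direction, so that outcome was fixed in advance. The bleomycin pair spread more than the PBS pair, with a median SD per gene of 0.115 against 0.064 on the log2 scale. With no filter more genes are tested and adjusted for; other causes were not tested. The paired check found little sharing between libraries of the same number (correlation of deviations 0.02), and the block gave 842 higher and 799 lower genes.

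For each ratio both bleomycin values lay on the same side of both PBS values. Leaving out 1 library therefore could not change its direction, and only the size of the difference is informative. Differences (bleomycin minus PBS) ran from 11.8 to 22.0 percentage points for the P4ha3 share, -5.23 to -0.89 for the Plod2 share, 0.685 to 1 for P4hb per alpha subunit, and, per procollagen, -0.102 to -0.068 for P4ha, -0.13 to -0.0975 for Plod, -0.294 to -0.231 for Serpinh1 and -0.3 to -0.247 for Pcolce.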

Other observations

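Vitamin C keeps the iron of prolyl and lysyl hydroxylases active, and its transporter genes did not pass. Slc23a2 was at 22.4 and 16.8 FPKM with bleomycin, against 32.3 and 26.2 FPKM with PBS (limma adjusted p = 0.0986), and Slc23a1 at 3.26 and 2.77 FPKM with bleomycin, against 5.01 and 3.94 FPKM with PBS (limma adjusted p = 0.113). Both were lower in both bleomycin libraries than in either PBS library, as were 35.0% of all tested genes. Gulo, which makes vitamin C in mouse liver, was at 0.15 FPKM in the first and listed at 0 in the second bleomycin library, against 0.57 and 0.27 FPKM with PBS, beside the lower hepatocyte markers of the bleomycin libraries. Of 5 tested genes of vitamin C and iron supply 0 rose and 0 fell by limma. At an unadjusted p under 0.05, 2 were lower, the 2 transporters, and 0 higher. Over all 12986 tested genes 2349 were lower and 2231 higher by that measure.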
